A study of Mus musculus with 8 samples.

Results

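Immediate early genes are transcribed within minutes of a growth factor, serum or stress signal, and the AP-1 genes among them encode the FOS and JUN proteins. A set of 32 immediate early, AP-1 and related genes was followed by name in a table of 48539 genes: 4 of the FOS family, 5 of the JUN family and its partners, 5 EGR and NR4A factors, 3 IER genes, 4 KLF factors, 4 dual-specificity phosphatases, 5 genes of growth and cycle control, and Zfp36 and Rhob. All 32 were found, and all 32 had a mean level of at least 1 FPKM (a measure of fragments scaled to transcript length and library size) over the libraries, the limit for testing, which 13278 genes passed. Their lowest level in any library was 1.03 FPKM.

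The cells were mouse embryonic fibroblasts (MEFs), cultured from mouse embryos, of which no strain, age or passage is given in the sources used here. Messenger RNA was sequenced in 8 libraries. In 4 libraries, EV replicates 1 to 4, the vector was an empty control that encodes only a fluorescent protein. In the other 4, YAP replicates 1 to 4, it encoded a fusion of wild-type YAP with a fluorescent protein. That protein was GFP in replicates 1 and 2 of each group and mCherry in replicates 3 and 4, which gives 2 libraries for each combination of vector and reporter. All cells, controls included, were transduced with lentivirus, grown in doxycycline and sorted by flow cytometry on the reporter. The labels do not say whether libraries came from separate cultures or embryos, so the p-values below reflect only how far these libraries differ among themselves, and that spread could be technical.

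YAP is a transcriptional co-activator that is held back by the Hippo kinases and binds DNA through TEAD factors. FOS proteins pair with JUN proteins to form AP-1, which binds a short DNA element in enhancers and promoters. In growth-factor signalling, ERK and related kinases switch on Fos, Egr1 and their relatives through SRF with its partners and through CREB-type factors, and the dual-specificity phosphatases, Zfp36 and other early products then shut the response down. In fibroblasts this programme is known chiefly from the burst that follows the addition of serum.

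FPKM sums per library ranged from 733339 to 1018605, and depth relative to EV replicate 1 ranged from 0.555 to 1.11, while the absolute depth is unknown. Yap1 stood between 88.4 and 93.2 FPKM in the libraries labelled EV and between 80.0 and 84.9 FPKM in those labelled YAP (log2 difference -0.14, limma adjusted p = 0.259), so its level does not check the labels, and directions refer to the libraries as labelled. Fibroblast markers were abundant, with Col1a1 at 2783 FPKM and Vim at 2863 FPKM on average in EV. Macrophage and leukocyte markers were also present: 12 of 15 passed the limit, Cd3e was listed at 0 in all 8 libraries, and the level summed over the markers was 287 to 414 FPKM in EV and 150 to 358 FPKM in YAP. In bulk RNA, fewer cells of a type and less RNA per cell cannot be told apart.

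Promoter sequence was available for 25 of the 32 genes in RefSeq (GRCm38.p6), with Fosl1, Egr1, Egr3, Ier2, Klf10, Dusp4 and Myc absent from that table. The 250 bases before the start site are shown for 6 genes on which the results turn: Fos (chr12:85473640-85473889 on the plus strand), whose YAP minus EV difference took opposite signs in the 2 reporters; Maff (chr15:79347270-79347519 on the plus strand, the start nearest the authors' locus of 3 in the table), Btg2 (chr1:134079156-134079405 on the minus strand) and Rhob (chr12:8500010-8500259 on the minus strand), each higher in every library labelled YAP; Nr4a2 (chr2:57124004-57124253 on the minus strand), lower in every one; and Nr4a1 (chr15:101266596-101266845 on the plus strand), split by reporter. Sequences read 5′ to 3′ toward the gene, and capitals mark TGACGTCA (the cAMP response element, CRE), its core TGACG, or the TEAD element CATTCC, on either strand.
Fos: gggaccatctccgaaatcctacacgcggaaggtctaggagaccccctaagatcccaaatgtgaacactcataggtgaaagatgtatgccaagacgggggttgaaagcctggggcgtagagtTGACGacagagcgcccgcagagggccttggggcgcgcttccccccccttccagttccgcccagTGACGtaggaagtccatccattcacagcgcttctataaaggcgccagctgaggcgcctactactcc
Maff: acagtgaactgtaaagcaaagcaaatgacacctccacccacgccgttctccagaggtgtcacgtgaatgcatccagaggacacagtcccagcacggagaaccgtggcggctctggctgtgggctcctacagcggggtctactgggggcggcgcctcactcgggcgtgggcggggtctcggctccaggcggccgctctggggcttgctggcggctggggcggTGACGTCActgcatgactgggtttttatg
Nr4a1: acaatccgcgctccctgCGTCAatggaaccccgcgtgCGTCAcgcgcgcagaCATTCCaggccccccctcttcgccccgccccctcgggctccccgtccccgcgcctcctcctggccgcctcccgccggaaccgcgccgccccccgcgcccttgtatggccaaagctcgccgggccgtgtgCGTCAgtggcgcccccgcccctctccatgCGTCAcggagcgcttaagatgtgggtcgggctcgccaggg
Nr4a2: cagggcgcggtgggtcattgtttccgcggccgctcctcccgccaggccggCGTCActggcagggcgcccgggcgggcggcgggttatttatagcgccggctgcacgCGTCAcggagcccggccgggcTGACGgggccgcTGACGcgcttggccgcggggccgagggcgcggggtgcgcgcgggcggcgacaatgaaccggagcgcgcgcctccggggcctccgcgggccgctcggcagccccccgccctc
Btg2: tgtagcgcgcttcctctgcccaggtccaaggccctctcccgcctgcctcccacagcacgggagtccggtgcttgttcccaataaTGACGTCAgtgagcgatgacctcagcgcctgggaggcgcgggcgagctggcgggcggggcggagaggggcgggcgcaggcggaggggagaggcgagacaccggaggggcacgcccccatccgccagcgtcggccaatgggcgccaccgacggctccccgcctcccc
Rhob: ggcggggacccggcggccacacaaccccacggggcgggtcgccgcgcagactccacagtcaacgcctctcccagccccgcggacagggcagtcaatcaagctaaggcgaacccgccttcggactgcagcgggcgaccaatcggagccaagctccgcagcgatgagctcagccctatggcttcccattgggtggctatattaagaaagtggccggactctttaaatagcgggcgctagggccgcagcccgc
Maff and Btg2 hold a full CRE, Fos holds the CRE core at 2 places and Nr4a1 and Nr4a2 at 4 each, Nr4a1 holds a TEAD element, and Rhob holds no element searched.

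Over all 25 genes with sequence, the full CRE TGACGTCA stood in 3 (Maff, Dusp1 and Btg2), or 12% against 1.77% of 27025 genes in the table, counting both strands of the same 250 bases. Its core TGACG, which also counts every full CRE, stood in 14 (56%, against 19.8%). The AP-1 element TGANTCA stood in 0 of 25, against 7.82% of all genes, and the TEAD element CATTCC in 2 (Egr2 and Nr4a1; 8%, against 14.4%). The CArG box, the element bound by SRF, stood in 3 (Egr2, Dusp5 and Zfp36; 12%, against 1.62%). These matches are descriptions of letters in a window and not binding sites. Elements further from the start site fall outside the 250 bases, so a gene without a match, such as Fos for the CArG box, may still have the element.

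The first comparison asked whether these genes differ between the libraries labelled YAP and EV. None of the 32 passed an adjusted p of 0.05, where 0.934% of the 13278 tested genes were called higher and 0.821% were called lower (limma on log2(FPKM + 0.5), with the reporter as a term and Benjamini-Hochberg adjustment over all genes). At an unadjusted p under 0.05, 12 were higher and 2 were lower (Nr4a2 and Klf10), against 7.39% and 7.12% of all genes. The YAP libraries lay wholly above the EV libraries for 5 genes, Maff, Myc, Btg2, Gadd45b and Rhob (all genes 4.63%), and wholly below for Nr4a2 (all genes 4.83%). The log2 difference was above 0 for 22 genes and below 0 for 10, with a median of 0.22 beside -0.0038 over all genes, and the extremes were Maff at 0.97 and Nr4a2 at -0.74.

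**Figure D1:**
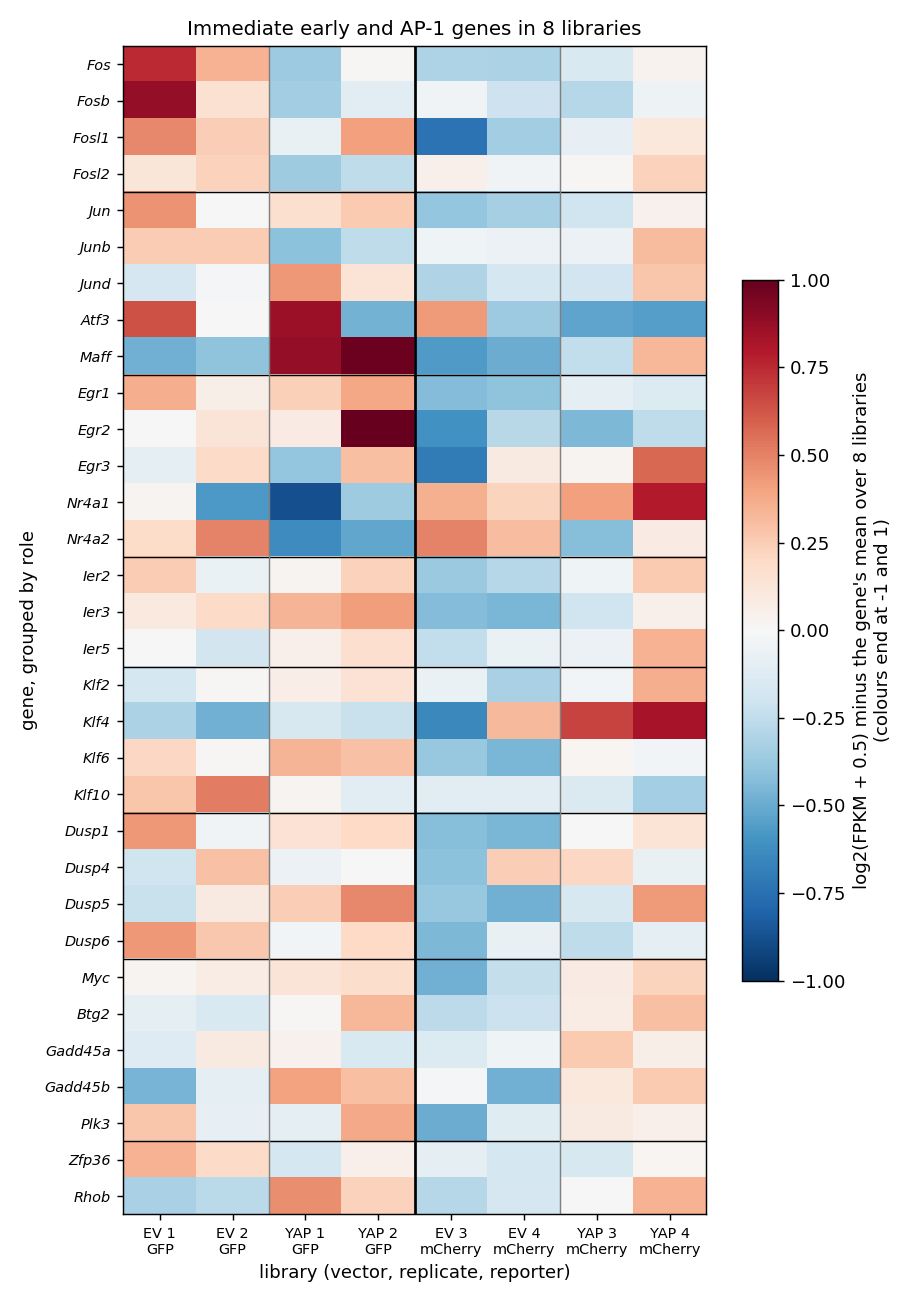
Level of the 32 genes (rows, grouped by role) in 8 libraries (columns, GFP left of the thick line and mCherry right), as log2(FPKM + 0.5) minus the gene's mean over the libraries, with colours ending at -1 and 1. EV replicates 3 and 4 hold the lowest value of 15 and 7 genes, and Maff, Rhob and Gadd45b are higher in the YAP columns of both reporters.

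The FOS family contributes the partner of JUN in AP-1. Fos itself was measured at 975, 738, 469 and 466 FPKM in the EV libraries, in the order of their numbers, and at 452, 587, 523 and 595 FPKM in the YAP libraries; library values below keep that order. The EV libraries with GFP were the highest of the 8 and the EV libraries with mCherry among the lowest, and the groups overlapped (662 ± 244 against 539 ± 66.3 FPKM, SD, n = 4 each; log2 difference -0.23, SE 0.22, adjusted p = 0.673). Fos ranked 130 of 13278 genes by mean FPKM in EV, and it made up 68.8% to 75.0% of the summed FPKM of the 4 family members in every library. Fosb, a close relative of Fos, ranged from 150.4 to 321 FPKM in EV and from 137 to 168 FPKM in YAP (log2 difference -0.39, adjusted p = 0.443).

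Fosl1 (FRA-1), which lacks the strong activation domain of Fos, stood at 11.8, 9.98, 4.81 and 6.43 FPKM in EV and at 7.89, 11.2, 7.83 and 9.02 FPKM in YAP. The lowest pair was EV with mCherry, and the groups overlapped (log2 difference 0.18, SE 0.20, adjusted p = 0.739). Fosl2 (FRA-2) stood at 39.8, 43.1, 37.8 and 35.8 FPKM in EV and at 28.5, 30.6, 36.8 and 43.0 FPKM in YAP. The YAP libraries with GFP were the lowest and those with mCherry lay within or at the top of the EV range (log2 difference -0.18, SE 0.13, adjusted p = 0.590).

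Jun, the main partner of Fos, stood at 173, 126, 96.9 and 101 FPKM in EV and at 142, 151, 110.1 and 130.3 FPKM in YAP. EV replicate 1 was the highest and the EV libraries with mCherry were the lowest, and the groups overlapped (log2 difference 0.13, SE 0.12, adjusted p = 0.672). Junb, a JUN protein with weaker transcriptional activity, stood at 128, 128, 104 and 103 FPKM in EV and at 80.7, 89.96, 103 and 134 FPKM in YAP, with the GFP libraries of YAP lowest (log2 difference -0.20, SE 0.17, adjusted p = 0.647). Jund, the JUN gene that resting cells express steadily, ranged from 40.1 to 49.0 FPKM in EV and from 43.3 to 66.9 FPKM in YAP (log2 difference 0.33, adjusted p = 0.285). In the annotation Prdx2 overlaps Junb, Junos overlaps Jun, Ccdc85b overlaps Fosl1 and Gm11175 overlaps Jund, each on the opposite strand, and Atf3, Dusp5, Gadd45a, Plk3 and Zfp36 also overlap a gene on the opposite strand. The authors' loci reach further neighbours on either strand, Prdx2 and Rnaseh2a for Junb and Med29 for Zfp36 among them, and overlap 4 other genes for Jun. The kit marks strand, but its use in quantification is not given in the sources used here, so levels of all these genes are uncertain.

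Summed FPKM of the 4 FOS genes was 1347, 984, 681 and 659 in EV and 625, 790, 710 and 816 in YAP. For Jun, Junb and Jund together it was 345, 303, 241 and 247 in EV and 289, 296, 256 and 324 in YAP. The ratio of the sums was 3.90, 3.24, 2.83 and 2.67 in EV and 2.16, 2.67, 2.77 and 2.51 in YAP, highest in the EV libraries with GFP.

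Maff, a small MAF protein that has no activation domain and pairs with other bZIP factors, held the largest difference among the 32. It stood at 3.84, 4.09, 3.603 and 3.81 FPKM in EV and at 10.7, 11.5, 4.63 and 7.13 FPKM in YAP. All 4 YAP libraries were above all 4 EV libraries, and the GFP libraries of YAP were above those with mCherry (3.84 ± 0.199 against 8.47 ± 3.18 FPKM, SD, n = 4 each; log2 difference 0.97, SE 0.20, adjusted p = 0.0755). With 1 library left out, its limma adjusted p ranged from 0.0317, without YAP replicate 3, the YAP library nearest to EV, to 0.216.

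Atf3, a stress-induced bZIP factor that can pair with JUN proteins, stood at 25.9, 16.5, 22.4 and 12.7 FPKM in EV and at 30.2, 11.7, 11.3 and 11.1 FPKM in YAP. YAP replicate 1 was the highest of all libraries while the other 3 YAP libraries were the lowest (log2 difference -0.35, SE 0.33, adjusted p = 0.678).

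Among the EGR zinc-finger factors, Egr1 stood at 439, 356, 253 and 259 FPKM in EV and at 404, 447, 322 and 311 FPKM in YAP. Its levels separated by reporter and not by vector (YAP minus EV log2 difference 0.20, SE 0.086, adjusted p = 0.342). Egr2 ranged from 1.54 to 2.89 FPKM in EV and from 1.77 to 7.47 FPKM in YAP, and Egr3 between 1.03 and 2.34 FPKM in EV and between 1.40 and 3.19 FPKM in YAP (adjusted p = 0.623 and 0.748).

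The NR4A genes encode orphan nuclear receptors whose activity depends largely on their amount. Nr4a2 stood at 8.72, 10.9, 10.9 and 9.52 FPKM in EV and at 4.74, 5.15, 5.52 and 8.09 FPKM in YAP. Every YAP library was below every EV library, the nearest being YAP replicate 4 (10.01 ± 1.08 against 5.88 ± 1.51 FPKM, SD, n = 4 each). The log2 difference was -0.74 (SE 0.15, limma adjusted p = 0.0730). With 1 library left out, the adjusted p ranged from 0.0406, without YAP replicate 4, to 0.209. The authors' deposited table gives Nr4a2 the other direction, with 11.9 FPKM for control, 14.0 FPKM for YAP and a q-value of 0.634. Nr4a1 stood at 53.3, 35.0, 67.1 and 61.1 FPKM in EV and at 28.3, 40.8, 69.6 and 91.0 FPKM in YAP, overlapping by vector (log2 difference -0.01, SE 0.21, adjusted p = 0.988).

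All 3 IER genes had a difference above 0. Ier3 (IEX-1), a regulator of cell survival, stood at 36.1, 38.6, 25.0 and 24.5 FPKM in EV and at 42.9, 45.3, 29.4 and 35.0 FPKM in YAP. Within each reporter both YAP libraries were above both EV libraries, but the groups overlapped across reporters (log2 difference 0.30, SE 0.078, adjusted p = 0.138). Ier2 ranged from 39.3 to 60.9 FPKM in EV and from 49.7 to 61.5 FPKM in YAP, and Ier5, which acts on heat shock factor 1, between 14.9 and 17.8 FPKM in EV and between 16.9 and 22.6 FPKM in YAP (adjusted p = 0.461 and 0.366).

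The KLF genes encode zinc-finger factors of growth and differentiation. Klf6 ranged from 31.7 to 50.7 FPKM in EV and from 42.9 to 55.5 FPKM in YAP (log2 difference 0.31, adjusted p = 0.127). Klf4 ranged from 52.5 to 103 FPKM in EV and from 70.2 to 145 FPKM in YAP (log2 difference 0.56, adjusted p = 0.337), with the YAP libraries of mCherry highest. Klf2 ranged from 13.8 to 17.6 FPKM in EV and from 17.2 to 22.6 FPKM in YAP (log2 difference 0.28, adjusted p = 0.339). Klf10, a TGF-β-induced member, had a difference below 0, with 8.51 to 13.4 FPKM in EV and 7.21 to 9.45 FPKM in YAP (log2 difference -0.28, adjusted p = 0.295).

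The dual-specificity phosphatases inactivate MAP kinases. Dusp1, a nuclear phosphatase, ranged from 37.3 to 69.3 FPKM in EV and from 51.4 to 59.1 FPKM in YAP (log2 difference 0.24, adjusted p = 0.507). Dusp5, a nuclear phosphatase of ERK, ranged from 3.88 to 5.98 FPKM in EV and from 4.96 to 7.999 FPKM in YAP (log2 difference 0.50, adjusted p = 0.210). Dusp6, the cytoplasmic phosphatase of ERK, ranged from 10.9 to 20.6 FPKM in EV and from 12.6 to 17.4 FPKM in YAP (log2 difference -0.09, adjusted p = 0.794). Dusp4 ranged from 1.38 to 2.56 FPKM in EV and from 1.87 to 2.38 FPKM in YAP (log2 difference 0.04, adjusted p = 0.965).

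Among the genes of growth and cycle control all 5 differences were above 0, and 3 genes were higher in YAP without overlap between the vectors (all genes 4.63%). Gadd45b, a stress-response protein that activates a kinase upstream of p38 and JNK, stood at 11.9, 15.5, 16.4 and 11.8 FPKM in EV and at 22.1, 20.5, 17.9 and 20.03 FPKM in YAP (13.9 ± 2.41 against 20.1 ± 1.74 FPKM; log2 difference 0.53, SE 0.13, adjusted p = 0.132). Btg2, an antiproliferative protein that recruits the deadenylase of messenger RNA, stood at 36.4, 35.0, 32.4 and 33.6 FPKM in EV and at 39.3, 49.2, 41.0 and 48.2 FPKM in YAP (34.4 ± 1.74 against 44.4 ± 4.99 FPKM; log2 difference 0.36, SE 0.095, adjusted p = 0.143). For both genes the lowest YAP library was above the highest EV library.

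Myc, the growth-promoting transcription factor, stood at 26.3, 27.3, 18.4 and 21.8 FPKM in EV and at 28.4, 29.3, 27.4 and 30.2 FPKM in YAP. The groups did not overlap, but YAP replicate 3 and EV replicate 2 nearly met, and the gap was widest within mCherry (log2 difference 0.31, SE 0.11, adjusted p = 0.260). Gadd45a, a relative of Gadd45b and a p53 target, ranged from 35.9 to 42.0 FPKM in EV and from 35.5 to 47.4 FPKM in YAP, and the kinase gene Plk3 between 6.24 and 11.1 FPKM in EV and between 8.37 and 11.9 FPKM in YAP (adjusted p = 0.679 and 0.610).

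Rhob, a small GTPase of endosomes and the actin cytoskeleton, had the smallest p of the 32. It stood at 48.7, 50.4, 50.0 and 54.2 FPKM in EV and at 84.3, 71.6, 61.3 and 77.7 FPKM in YAP. The EV libraries were tight and all 4 YAP libraries were above them (50.8 ± 2.34 against 73.7 ± 9.78 FPKM). The log2 difference was 0.52 (SE 0.10, limma adjusted p = 0.0690). With 1 library left out, the adjusted p ranged from 0.0427, without YAP replicate 3, the YAP library nearest to EV, to 0.191. Zfp36, which binds AU-rich messenger RNA and speeds its decay, ranged from 37.3 to 53.7 FPKM in EV and from 37.3 to 43.6 FPKM in YAP (log2 difference -0.14, adjusted p = 0.633).

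**Figure D2:**
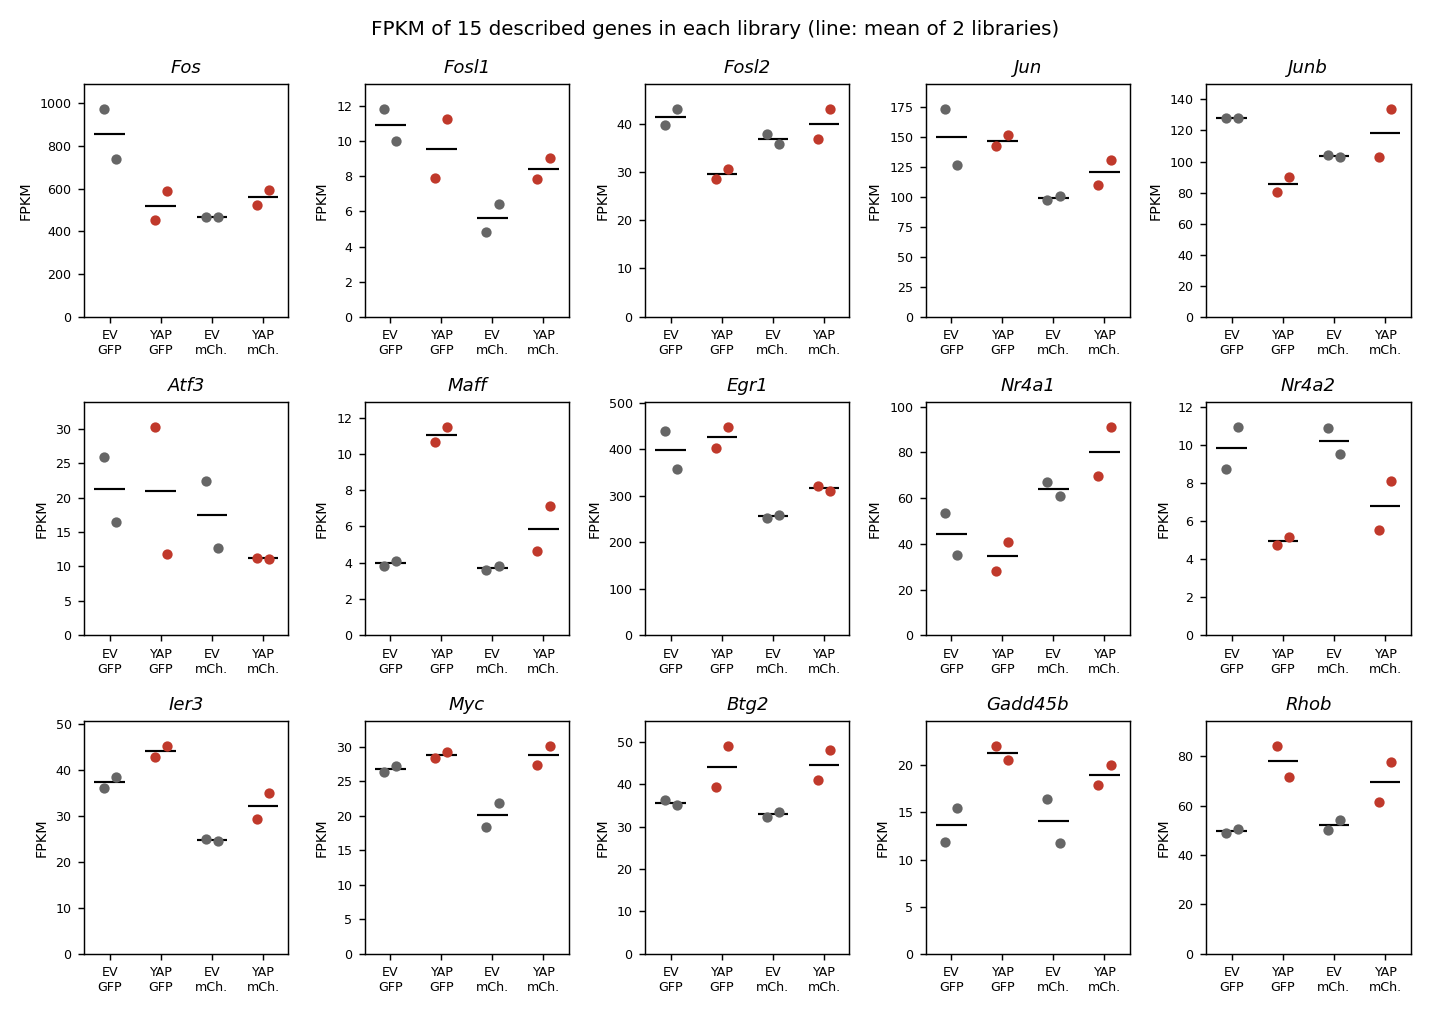
FPKM (vertical axis, from 0) of the 15 genes described by library value, with 1 point per library and a line at the mean of the 2 libraries of each vector and reporter (mCh., mCherry). Maff is at 10.7 and 11.5 FPKM in YAP with GFP and at 4.63 and 7.13 FPKM in YAP with mCherry, while Egr1 and Ier3 separate by reporter.

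The second comparison set the 4 mCherry libraries against the 4 GFP libraries. None of the 32 passed the adjusted threshold (limma; all genes 0.0904%), while 2 were higher (Nr4a1 and Klf4) and 10 were lower in mCherry at an unadjusted p under 0.05, against 5.98% and 4.59% of all genes. The difference was below 0 for 26 of 32, with a median of -0.21 beside 0.020 over all genes. The reporters did not overlap for Nr4a1, which was higher in mCherry (all genes 2.95%), and for Egr1, Egr2, Ier3 and Dusp6, which were lower (all genes 2.15%); Egr2 and Dusp6 are named here after their values were seen.

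Ier3 had the smallest p, with 40.7 ± 4.16 FPKM in GFP and 28.4 ± 4.86 FPKM in mCherry (SD, n = 4 each; log2 difference -0.52, SE 0.078, adjusted p = 0.138). Egr1 was at 412 ± 41.5 FPKM in GFP and 286 ± 35.3 FPKM in mCherry (log2 difference -0.53, SE 0.086, adjusted p = 0.186). Nr4a1 went the other way, with 39.3 ± 10.6 FPKM in GFP and 72.2 ± 13.0 FPKM in mCherry (log2 difference 0.89, SE 0.21, adjusted p = 0.280). Jun differed by -0.44 (SE 0.12, adjusted p = 0.321), Maff by -0.49 (adjusted p = 0.463) and Fosl1 by -0.53 (adjusted p = 0.429) on the log2 scale.

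The mCherry libraries were not alike. In EV replicates 3 and 4, 28 and 27 of the 32 genes were below their own mean over the 8 libraries, in YAP replicate 3 it was 19 and in YAP replicate 4 it was 8. EV replicate 3 held the lowest value for 15 genes and EV replicate 4 for 7. Leaving out YAP replicate 3 moved these counts most among the 8 libraries: 10 genes in place of 6 were then above 0, and 6 in place of 10 were lower at an unadjusted p under 0.05. EV replicates 3 and 4 had the lowest FPKM sums, 733339 and 774118, and the lowest share of the sum in its top gene Gm3788, 13.5% and 17.4%, against 22.2% to 29.1% in the others. Over the 12 macrophage and leukocyte markers tested, all 12 were higher in mCherry than in GFP (median log2 difference 0.63, none past the adjusted threshold and 10 at an unadjusted p under 0.05), and their summed level was 330 to 414 FPKM in mCherry and 149.9 to 302 FPKM in GFP. The part of these features in the reporter difference was not tested.

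The third comparison asked whether the difference between YAP and EV depended on the reporter. None of the 32 passed the adjusted threshold for that interaction (limma; all genes 0.0678%). At an unadjusted p under 0.05, 4 were higher in mCherry (Fos, Fosl2, Junb and Myc; all genes 5.62%) and Maff was lower (all genes 4.19%). The difference of the differences was above 0 for 26 of 32, with a median of 0.30 beside 0.011 over all genes. This count is not independent of those in the vector and reporter comparisons, which use the same libraries. EV replicates 3 and 4, with 28 and 27 of the 32 genes below their own mean, enter each of them. The genes also vary together (median correlation 0.262 over 496 pairs), so they are not separate observations.

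Among the 32, AP-1 genes held the smallest interaction p values, but smaller ones occurred outside the set. Of 23 other immediate early genes, 3 were higher and 2 were lower in mCherry at an unadjusted p under 0.05 (limma). Fos was lower in YAP with GFP, from 975 and 738 FPKM in EV to 452 and 587 FPKM, and higher in YAP with mCherry, from 469 and 466 FPKM to 523 and 595 FPKM (log2 differences -0.72, SE 0.17, and 0.25, SE 0.17). It was the only gene of the 32 whose libraries did not overlap in either reporter and took opposite directions. The pattern in the direction of Fos, lower with GFP and higher with mCherry, was seen in 4.39% of all genes. The interaction of Fos was 0.97 (SE 0.25, limma adjusted p = 0.369). Junb had an interaction of 0.77 (SE 0.19) and Fosl2 of 0.59 (SE 0.15), both with the same adjusted p of 0.369. Maff had -0.80 (SE 0.29, adjusted p = 0.454) and Myc 0.41 (SE 0.16, adjusted p = 0.485).

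Within GFP, 1 of the 32 genes passed the adjusted threshold, where 1.3% of all genes did. Maff rose from 3.84 and 4.09 FPKM in EV to 10.7 and 11.5 FPKM in YAP (log2 difference 1.37, SE 0.20, adjusted p = 0.0432), a call that was lost without the filter on level (0.0737), without the variance trend (0.0545) and without any of 6 single libraries, EV replicates 1 to 4 and YAP replicates 1 and 2 (0.104 to 0.194). All 4 FOS genes had a difference below 0 there, with a median of -0.60, and the smallest adjusted p was 0.117. At an unadjusted p under 0.05, 7 of the 32 genes were lower within GFP (Fos, Fosb, Fosl2, Junb, Nr4a2, Klf10 and Zfp36; all genes 8.52%) and 3 were higher (Maff, Gadd45b and Rhob; all genes 7.61%). Junb was at -0.59 (SE 0.13, adjusted p = 0.122) and Nr4a2 at -0.91 (SE 0.21, adjusted p = 0.121).

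Within mCherry none of the 32 passed the adjusted threshold (limma; all genes 0.399%), with 12 higher (all genes 6.24%) and Nr4a2 lower (all genes 4.79%) at an unadjusted p under 0.05. The difference was above 0 for 28 of 32, with a median of 0.31, against 16 of 32 and a median of 0.0115 within GFP. Myc was nearest to the threshold, from 18.4 and 21.8 FPKM in EV to 27.4 and 30.2 FPKM in YAP (log2 difference 0.51, SE 0.11, adjusted p = 0.188), and Fosl1 was at 0.55 (SE 0.22, adjusted p = 0.434). Over both reporters, 11 genes were higher in YAP in each reporter without overlap (all genes 7.24%) and 2, Nr4a2 and Klf10, were lower (all genes 7.65%).

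**Figure D3:**
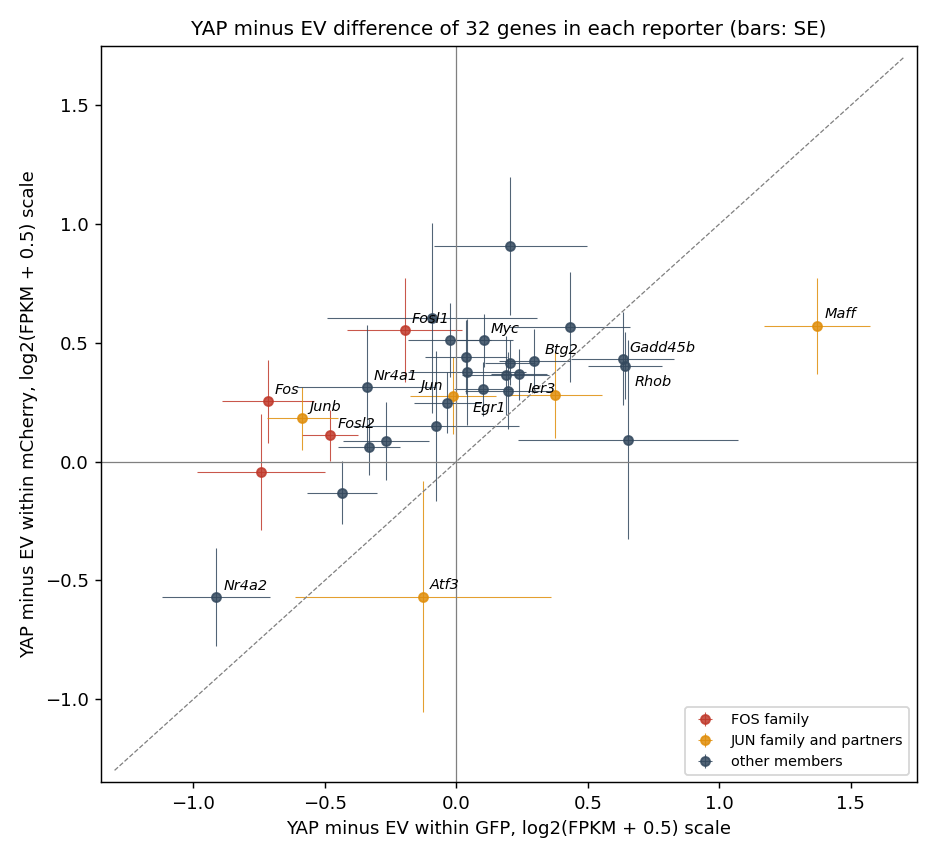
YAP minus EV difference of each of the 32 genes on the log2(FPKM + 0.5) scale within GFP (horizontal) and within mCherry (vertical), with bars for the SE and a dashed line where both are equal. Most points lie above the dashed line (26 of 32), Maff lies far to the right at 1.37, and Fos, Junb and Fosl2 lie left of 0 and above 0.

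Other genes of these pathways were read from lists in the same fit, beside the 0.934% of all genes called higher and 0.821% called lower. Of 23 other immediate early genes tested, 3 were called higher in the libraries labelled YAP and none lower, with a median difference of 0.0037. The kinase gene Pim1 rose from 8.37 ± 0.365 to 12.3 ± 0.854 FPKM (SD, n = 4 each, here and in the lists that follow; log2 difference 0.53, adjusted p = 0.0263). Cyr61 and Ctgf, secreted matrix proteins and widely used YAP targets, differed by 0.88 and 0.87 on the log2 scale (adjusted p = 0.00273 and 0.0122), with differences of nearly equal size in GFP (0.83 and 0.85) and mCherry (0.93 and 0.89).

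Over 15 further bZIP partners of AP-1, the median difference was -0.16, and none was called higher (limma; none at an unadjusted p under 0.05 either). Among 12 macrophage and leukocyte markers, the complement genes C1qa and C1qc fell (adjusted p = 0.0169 and 0.0353); the part of such cells in the differences described here was not tested. In the ERK cascade itself, 1 of 24 genes was called lower, the receptor gene Pdgfra (25.7 ± 2.83 to 17.3 ± 0.416 FPKM, limma adjusted p = 0.0282). Of these 24, 5 were lower and 0 higher at an unadjusted p under 0.05, against 7.12% and 7.39% of all genes. Of 19 ERK targets and feedback genes, Spry1, an inhibitor of receptor signalling, rose from 13.0 ± 1.46 to 17.9 ± 2.21 FPKM (limma adjusted p = 0.0284). Ccnd1, cyclin D1, rose from 78.5 ± 4.76 to 116 ± 23.8 FPKM (adjusted p = 0.0431), and none was called lower. The median difference over the 19 was -0.099, with 12 below 0. At an unadjusted p under 0.05, 4 were higher and 3 were lower, against 7.39% and 7.12% of all genes.

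Of 15 JNK and p38 kinase genes tested, Mapk13 rose (log2 difference 0.50, adjusted p = 0.0446). None of 6 genes for SRF and its partners passed (limma; none at an unadjusted p under 0.05 either). Over 12 genes known as AP-1 targets the median difference was 0.28; Ccnd1, which is also one of these, rose as given above, and the matrix-degrading protease gene Mmp3 fell from 6.30 ± 1.09 to 0.853 ± 0.467 FPKM (log2 difference -2.38, adjusted p = 0.00922). None of 13 MYC target genes passed (none at an unadjusted p under 0.05 either). Of 12 heat shock genes, read as signs of handling stress, none passed and 2 were higher at an unadjusted p under 0.05. Their summed level was 1448 to 1708 FPKM in EV and 1502 to 1751 FPKM in YAP. A single gene, at 979 to 1324 FPKM over the libraries, made up most of that sum, so the sum says little about the others. Within GFP, 1 of the 12 was called lower, where 1.3% of all genes were called in either direction. Of 15 fibroblast markers Lum and Pdgfra fell (adjusted p = 0.0122 and 0.0282), of 3 epithelial markers tested Krt7 rose (adjusted p = 0.0263) while Epcam was listed at 0 in all libraries, and the only endothelial marker tested, Erg, fell (adjusted p = 0.0170).

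The authors' deposited table holds 1 FPKM value per pooled vector group, with no library values. By its q-value at 0.05, 6 of the 32 genes were called higher in the YAP arm (Maff, Rhob, Gadd45b, Btg2, Dusp5 and Klf6) and 1 lower (Fosb). In the authors' deposited table Maff stood at 4.36 and 9.64 FPKM in the control and YAP arms (q = 0.000502), Rhob at 57.7 and 83.9 FPKM (q = 0.000502) and Fosb at 231 and 171 FPKM (q = 0.00550). Arm values of the authors' deposited table were above the mean of the library values for all 32 genes, at a median ratio of 1.14 in each arm. The ratio was far from that for Nr4a2 in the YAP arm (2.39), for Egr2 (2.29 and 1.62) and for Klf4 (1.64 and 1.35), and the direction of the difference was opposite to that of the library values for 3 genes, Nr4a2, Fosl2 and Nr4a1.

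**Figure D4:**
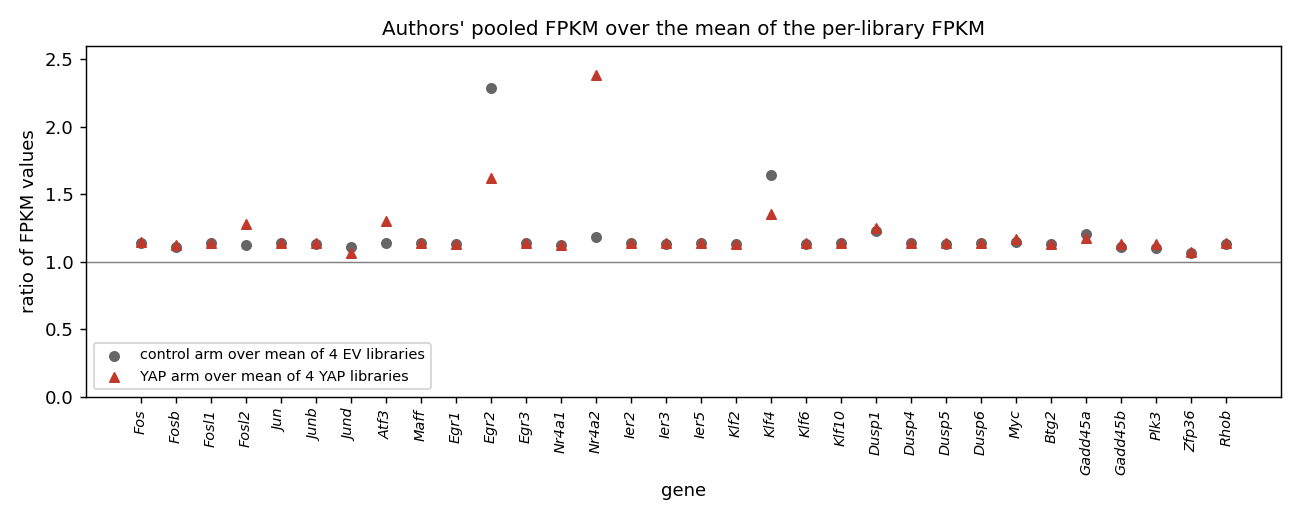
Ratio (vertical axis, from 0) of the authors' FPKM for a pooled arm to the mean FPKM of its 4 libraries for each of the 32 genes, control arm as circles and YAP arm as triangles. Most genes lie near the medians of 1.14, and Egr2, Nr4a2 and Klf4 lie above, with the YAP arm of Nr4a2 at 2.39.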

How the data were processed

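Gene-level FPKM values for each of the 8 libraries were deposited by the authors, as were FPKM values per pooled arm with a q-value, in another table. The submitters' processing notes name TopHat, Cufflinks and mm10, with no version; scaling and annotation release are not given in the sources used here. The number of columns that matched no sample was 0. Of 49 identifiers on more than 1 row, 12 kept their only row above 0 (Junb among them) and 37 were left out, leaving 48539 genes, of which 48181 were in GENCODE M21 (GRCm38).

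Genes at a mean FPKM of 1 or more entered limma 3.58.1 (R 4.3.3) on log2(FPKM + 0.5), with a variance trend; fold changes on that scale understate the change of low genes. The vector fit had a reporter term, and the interaction and the effects within reporters came from 4 arm means that share 1 spread. P-values were adjusted by Benjamini-Hochberg over all 13278 genes, threshold 0.05. The fit was tested on simulated data. Tables were handled with pandas 2.3.3 in Python 3.11.15 and plots drawn with matplotlib 3.10.9. Relative depth was read from ratios of FPKM values under 0.1.

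The 32 genes and the 13 lists were chosen with earlier results of these data known. Library values are given for genes called in any of the 5 comparisons, for non-overlapping genes with an unadjusted p under 0.01, for the 4 with the smallest interaction p, and for Fos, Fosl1, Jun, Egr1, Atf3 and Myc; the other 17 are given by range. From each further list at most 4 called genes are named, by smallest p, and some that this rule names are not reported here. The main fits did not treat libraries with the same replicate number as pairs. Alternatives covered the pseudocount, level filter, scaling, variance trend, reporter term, replicate block and each library left out.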

Additional observations from a re-analysis of the deposited data

Results flagged for a closer look

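Atf3 in YAP replicate 1, at 30.2 FPKM, stood far from the other 3 YAP libraries at 11.1 to 11.7 FPKM: the gap took up 0.969 of the group's range, above Dixon's critical value for 4 samples. It was the only such value among 64 groups of 4 libraries examined. By chance about 1 group in 20 would be flagged, so a single flag among 64 groups is no more than chance gives.

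For Fos both YAP libraries stood below both EV libraries with GFP and above them with mCherry, with a difference between reporters of 0.97 on the log2 scale. Over all genes the limma adjusted p of that difference was 0.369, and it ranged from 0.327 to 0.588 over the alternatives. Fos was 1 of 32 genes with this pattern, no more than the share of all genes, 4.39%.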

How the results depend on the processing

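No member was called in the vector, reporter or interaction comparison under another pseudocount, level filter or scaling, without the variance trend, with the replicate block or without the reporter term. With the replicate block, 1 member was lower in YAP at an unadjusted p under 0.05 in place of 2, and 1 likewise without the reporter term. Libraries with the same replicate number shared little deviation (correlation of deviations from the group mean -0.015 to 0.090), which cannot show whether they were prepared together. Within GFP, members called higher numbered 0 without the level filter and 0 without the variance trend, in place of 1. Over fits that left out 1 library, YAP minus EV gave 0 to 2 members called higher (2 without YAP replicate 3, Maff and Rhob), 0 to 1 called lower (1 without YAP replicate 4, Nr4a2), 7 to 13 higher at an unadjusted p under 0.05 (7 without YAP replicate 4) and 1 to 2 lower. In mCherry minus GFP, 6 to 10 members were above 0 (10 without YAP replicate 3), with 1 to 2 higher and 6 to 12 lower at an unadjusted p under 0.05. The interaction gave 3 to 8 higher (8 without EV replicate 2) and 0 to 1 lower, and members called higher within GFP numbered 0 to 1. Nr4a1 in YAP minus EV ranged from -0.16 to 0.17 and turned positive without EV replicate 1 (0.17) and without YAP replicate 1 (0.15). Genes called over the whole table numbered 124 higher and 109 lower, but 75 and 71 without the level filter, 78 and 88 without the variance trend, 80 and 70 without the reporter term, 6 and 9 with the replicate block, and 25 to 56 and 21 to 58 with 1 library left out. The causes were not tested. The block and the fit without a reporter term give no value for reporter comparisons. A mean FPKM of at least 5 leaves out Egr2, Egr3 and Dusp4. Fragment counts were not used here, so no counting interval can be given.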
